A study of Homo sapiens with 13 samples.

Results

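Sphingosine-1-phosphate (S1P) metabolism and transport was followed through 9 genes of 23886 gene symbols listed, in DLD-1 cells, an established line from a human colorectal adenocarcinoma. The 9 genes are the exporter SPNS2, the kinases SPHK1 and SPHK2, the phosphatases SGPP1 and SGPP2, the lyase SGPL1 and the receptors S1PR2, S1PR3 and S1PR5. They were chosen by name, with both comparisons below already known, so each fold change and adjusted p of these genes is a description and no test of them as a group was made. Polyadenylated RNA was sequenced from 13 samples, each treated with small interfering RNA (siRNA) at 50 nM and harvested at 72 h. The first comparison set 4 samples with an siRNA against SOX9 (siSOX9) against 3 samples with a control siRNA (siCtrl), from experiments 1 and 2, with 3 siSOX9 and 2 siCtrl samples from experiment 1. The second set 4 samples with siRNAs against Y14 (siY14) against 2 siCtrl samples, all from experiment 3. The siY14 samples used 2 different siRNAs, numbered 9 and 10, with 2 samples each, and the authors pooled them. SOX9 encodes a transcription factor active in intestinal stem and progenitor cells, and Y14 belongs to the exon junction complex, deposited on mRNA as it is spliced. All samples are of a single tumour line, and siRNA reduces rather than removes its target. No label states whether the samples of a group came from different cultures, so p-values reflect the scatter among these samples alone, which may be technical.

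S1P is a lipid signal made inside cells when SPHK1 or SPHK2 phosphorylates sphingosine, a breakdown product of ceramide. SGPP1 and SGPP2 remove the phosphate again and return the lipid to the ceramide pool, while SGPL1 cleaves it irreversibly. S1P leaves some cells through SPNS2, a membrane transporter, and then acts on a family of G protein-coupled receptors on the cell surface. In the gut the pathway is best known for its parts in inflammation, in lymphocyte trafficking and in the growth of colon tumours.

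The deposited tables give a mean normalised read count per arm, namely reads divided by a size factor of each library. Whole reads per library were recovered from the printed digits of these means. Recovered libraries carry no sample name and are lettered within each arm from a, the deepest, so no library was assigned to an experiment. Estimated depth was 24.8 to 184 M counts in siSOX9 libraries and 25.0 to 179 M in their siCtrl libraries. It was 49.5 to 71.6 M in siY14 libraries and 47.2 to 67.1 M in their siCtrl libraries. SOX9 had a mean of 9067 normalised counts with siSOX9 against 24468 with siCtrl in the authors' deposited table. RBM8A, the gene of Y14, was listed at 0 in all arms, so that knockdown was not checked. The epithelial markers EPCAM, KRT8 and KRT18 had at least 25877 normalised counts in every arm, while CDX1, another of the 11 colon epithelial markers checked, was at most 2.83. Of 6 immune, 6 fibroblast and 5 endothelial markers, PTPRC, CD3E, COL1A2, LUM, PECAM1 and KDR had at most 0.629 normalised counts in any arm. Others were higher, with CD14 at 49.9 to 99.9, CD79A at 9.43 to 17.9, PDGFRB at 42.7 to 103 and VWF at 23.3 to 38.4. The authors' deposited table has these fibroblast markers changed by siSOX9: COL1A1 (82.6 against 34.1 with siCtrl, adjusted p 0.0217) and COL3A1 (11.9 against 0.647, adjusted p 0.00172) were higher and PDGFRB (55.8 against 103, adjusted p 0.0247) was lower. Their part in the results was not tested. Summed over each list, arms had 66.1 to 120 immune, 63.1 to 151 fibroblast and 28.97 to 39.7 endothelial normalised counts. The siY14 libraries fell into pairs. Over 5756 recovered genes, deviations from the arm mean correlated at 0.85 between libraries a and c and at 0.85 between b and d, and at -0.92 to -0.93 between the pairs. The deepest siSOX9 and siCtrl libraries of the first table, at 184 and 179 M counts against at most 41.7 and 38.1 M in the others, deviated together, with a correlation of 0.86 over 6242 genes. Each arm holds 1 sample of experiment 2, and whether these are those samples is not known. These correlations describe libraries that share genes and arm means.

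The pathway was expressed unevenly, with SGPL1 and SGPP1 above the other members in every arm. Levels between genes are given as normalised counts per kb of exon, with exon lengths from GENCODE 29. In siCtrl cells of experiments 1 and 2 the order was SGPL1 at 1050, SGPP1 at 497, SPHK2 at 249.1, SPNS2 at 153, S1PR2 at 68.1, SGPP2 at 17.2, SPHK1 at 9.59, S1PR5 at 5.76 and S1PR3 at 0.0360 counts per kb. Neighbours in this order did not overlap across the 3 libraries, except SPHK1 and S1PR5. In siCtrl cells of experiment 3 SGPL1 was at 1640 and SGPP1 at 910.3 counts per kb, and SPNS2, at 171, stood above SPHK2, at 92.0. The tables were normalised separately, so levels set across them are shown side by side and not tested. S1PR1 was listed at 0 in both tables, and S1PR4 had at most 6.78 normalised counts in any arm, so S1PR2 was the best represented S1P receptor.

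SPNS2, which carries S1P out of the cell, was the member that differed most clearly with siSOX9. Its normalised counts were 142, 185, 179 and 216 in siSOX9 libraries a to d, against 504, 534 and 548 in siCtrl libraries a to c. Every siSOX9 library was below every siCtrl library. The means were 180 ± 30.2 (SD, n = 4) with siSOX9 and 528 ± 22.7 (SD, n = 3) with siCtrl. The log2 fold change was -1.55 (adjusted p 8.34e-13, the authors' deposited table). Leaving out any 1 library kept it between -1.65 and -1.45. SPNS2 shares 139 bases of exon, 4.03% of its exon length, with MYBBP1A on the opposite strand, and the sources used here do not say whether counting used strand. MYBBP1A had 7905 normalised counts with siSOX9 and 7936 with siCtrl in the authors' deposited table.

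With siY14, SPNS2 was well above siCtrl in some libraries and slightly below it in others. Its normalised counts were 1031, 507, 1097 and 485 in siY14 libraries a to d, against 622 and 556 in siCtrl libraries a and b. Libraries a and c were above both siCtrl libraries, and libraries b and d were below both. These are the pairs formed over the 5756 recovered genes. Whether the libraries of a pair received the same siRNA is not known. The means were 780 ± 329 (SD, n = 4) with siY14 and 589 ± 46.9 (SD, n = 2) with siCtrl, a log2 fold change of 0.41 (adjusted p 0.803, the authors' deposited table). Taken alone, libraries a and c gave a log2 fold change of 0.85 and libraries b and d one of -0.25. The step of b and d below siCtrl was about as small as the distance between the siCtrl libraries. The pooled mean of SPNS2 thus lies where no siY14 library lies.

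**Figure D1:**
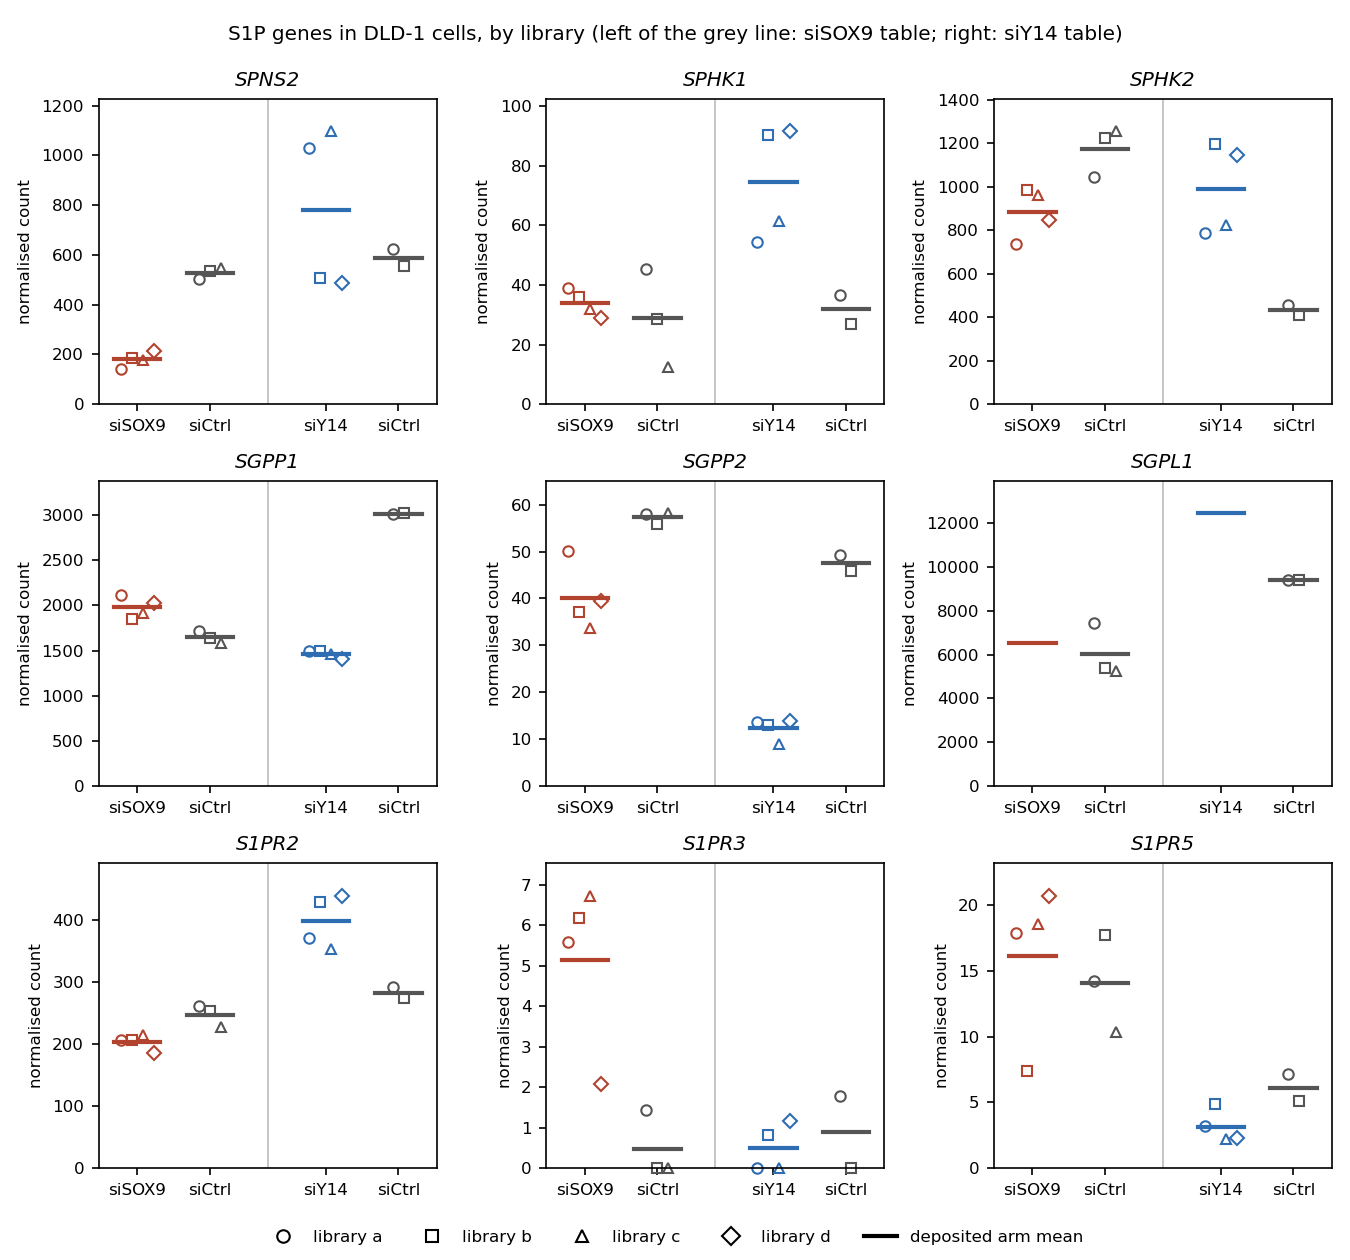
Normalised read counts of the 9 S1P genes (vertical axes, from 0) in each arm of both tables. Open symbols are recovered libraries, lettered by depth within an arm, and bars are the deposited arm means. SPNS2 is low in all siSOX9 libraries and split in siY14 libraries, at 1031 and 1097 against 507 and 485. SGPL1 has no library values in the siSOX9 and siY14 arms, since its means there were too high for reads to be recovered.

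The kinases were higher with siY14. SPHK1, a mostly cytosolic kinase that moves to the plasma membrane when activated, had 54.4, 90.4, 61.4 and 91.5 normalised counts in siY14 libraries a to d, against 36.7 and 26.8 in siCtrl libraries. All siY14 libraries were above both siCtrl libraries, with b and d the highest. The means were 74.4 ± 19.3 (SD, n = 4) with siY14 and 31.8 ± 7.06 (SD, n = 2) with siCtrl, a log2 fold change of 1.23 (adjusted p 0.0376, the authors' deposited table). Libraries a and c alone gave a log2 fold change of 0.87, and b and d alone one of 1.52. The siY14 SD thus also holds the difference between these pairs. SPHK1 rested on 55 to 111 reads per siY14 library, and on 41 and 21 reads in the siCtrl libraries. With limma-voom on the recovered reads its adjusted p was 0.0537, and 0.0330 to 0.262 with 1 library left out, so this call depends on the test.

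SPHK2, a kinase found in the nucleus and at mitochondria as well as in the cytosol, had 787, 1195, 822 and 1144 normalised counts in siY14 libraries a to d, against 456 and 410.3 in siCtrl libraries. The groups did not overlap, and b and d were again the highest. The means were 987 ± 212 (SD, n = 4) with siY14 and 433 ± 32.4 (SD, n = 2) with siCtrl. The log2 fold change was 1.19 (adjusted p 0.0058, the authors' deposited table). Libraries a and c alone gave 0.89 and b and d alone 1.43, so this siY14 SD also holds the difference between the pairs. SPHK2 overlaps exons of 2 protein-coding genes on the opposite strand, DBP over 14.0% and RPL18 over 5.23% of its exon length. RPL18, a ribosomal protein gene, had 47971 normalised counts with siY14 and 34467 with siCtrl, and DBP, a circadian transcription factor gene, had 439 and 621, in the authors' deposited table. The part of these genes in the SPHK2 counts was not tested.

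With siSOX9 neither kinase was under an adjusted p of 0.05. SPHK2 had 738, 983, 960.4 and 845 normalised counts in siSOX9 libraries a to d, against 1042, 1222 and 1254 in siCtrl libraries. All siSOX9 libraries were below all siCtrl libraries, and the log2 fold change was -0.41 (adjusted p 0.258, the authors' deposited table). With limma-voom on the recovered reads the adjusted p of SPHK2 was 0.0440, and 0.0310 to 0.130 with 1 library left out. Without the deepest library of each arm it was 3.86e-04, so this call depends on the test. SPHK1 had 38.9, 35.8, 32.0 and 29.01 normalised counts in siSOX9 libraries a to d, against 45.2, 28.6 and 12.5 in siCtrl libraries. The groups overlapped, and the siCtrl libraries ranged widely, on 156, 21 and 6 reads. The log2 fold change of SPHK1 was 0.24 (adjusted p 1, the authors' deposited table), and it was -0.12 without siCtrl library c, 0.72 without siCtrl library a and 0.65 without the deepest library of each arm.

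The phosphatases were lower with siY14. SGPP1, a phosphatase of the endoplasmic reticulum, had 1493, 1495, 1464 and 1404 normalised counts in siY14 libraries a to d, against 3012 and 3018 in siCtrl libraries. The siY14 libraries lay close together and far under the siCtrl libraries, and the pairs seen in SPNS2 and the kinases were not visible. Recovery of siY14 reads is less certain at such a high mean and favours sets with little spread, so this closeness is uncertain. The means were 1464 ± 42.3 (SD, n = 4) with siY14 and 3015 ± 3.92 (SD, n = 2) with siCtrl. This siCtrl SD rests on 2 libraries that lay close together, so it says little about spread. The log2 fold change was -1.04 (adjusted p 4.36e-07, the authors' deposited table). SGPP2, a second S1P phosphatase known to be induced in inflammation, had 13.6, 13.0, 8.92 and 13.9 normalised counts in siY14 libraries a to d, against 49.3 and 45.9 in siCtrl libraries. The groups did not overlap. The means were 12.4 ± 2.32 (SD, n = 4) with siY14 and 47.6 ± 2.41 (SD, n = 2) with siCtrl, a log2 fold change of -1.94 (adjusted p 4.48e-04, the authors' deposited table). This gene rested on 8 to 17 reads per siY14 library, against 55 and 36 reads in the siCtrl libraries.

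With siSOX9 neither phosphatase was under an adjusted p of 0.05. SGPP1 had 2118, 1849, 1916 and 2027 normalised counts in siSOX9 libraries a to d, against 1719, 1641 and 1580 in siCtrl libraries. All siSOX9 libraries were above all siCtrl libraries, and the log2 fold change was 0.26 (adjusted p 0.813, the authors' deposited table). With limma-voom on the recovered reads the adjusted p of SGPP1 was 0.0515, and 0.00932 without the deepest library of each arm. SGPP2 had 50.1, 37.1, 33.7 and 39.4 normalised counts in siSOX9 libraries a to d, against 58.0, 55.8 and 58.1 in siCtrl libraries. All siSOX9 libraries were below all siCtrl libraries, and the log2 fold change was -0.52 (adjusted p 1, the authors' deposited table).

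The DNA just upstream of SPHK1 and SGPP2 is shown because these genes were higher and lower with siY14. Each window is the 250 bases before a RefSeq start on GRCh38.p14, given as the gene's strand reads and only where no GENCODE 29 exon lies. Capitals mark a match to ACAAT or ACAAAG, the core that SOX proteins bind, on either strand.
SPHK1, chr17:76382954-76383203, plus strand: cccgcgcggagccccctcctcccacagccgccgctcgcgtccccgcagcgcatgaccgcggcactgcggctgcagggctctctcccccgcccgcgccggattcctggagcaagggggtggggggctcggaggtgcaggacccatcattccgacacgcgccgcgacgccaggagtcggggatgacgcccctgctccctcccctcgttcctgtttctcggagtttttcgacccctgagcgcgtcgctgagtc
SPHK1, chr17:76384359-76384608, plus strand: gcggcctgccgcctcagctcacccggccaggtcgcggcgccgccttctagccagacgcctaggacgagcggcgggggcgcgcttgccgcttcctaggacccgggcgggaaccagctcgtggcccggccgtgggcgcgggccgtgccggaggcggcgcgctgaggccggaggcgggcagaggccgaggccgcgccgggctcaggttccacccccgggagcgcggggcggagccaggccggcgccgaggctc
SGPP2, chr2:222423738-222423987, plus strand: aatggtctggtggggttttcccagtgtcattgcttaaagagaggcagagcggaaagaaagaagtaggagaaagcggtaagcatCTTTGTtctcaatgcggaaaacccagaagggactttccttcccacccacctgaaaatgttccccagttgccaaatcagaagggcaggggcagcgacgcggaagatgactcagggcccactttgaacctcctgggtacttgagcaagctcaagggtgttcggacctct

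The SPHK1 windows shown have 72.4% and 80.8% G and C, with 31 and 39 CpG pairs, and another window, 142 bases of which are exon, has 66.4% and 15. The SGPP2 window has 52.0% G and C and 7 CpG pairs, and a second SGPP2 start, 26 bases of whose window are exon, has 76.0% and 31. The median of all 35116 RefSeq windows is 58.0% G and C with 11 CpG pairs. RefSeq windows were matched for 7 of the 9 members, 13 in all, and not for SGPP1 and SPNS2. The SOX core was found in 4 of these 13 windows, of SGPP2, S1PR2, S1PR5 and SPHK2, and in 33.7% of all windows. A match is a string of letters and not a binding site.

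Within a library the ratio of kinase to phosphatase transcripts does not depend on the size factor. The summed level per kb of SPHK1 and SPHK2 over that of SGPP1 and SGPP2 was 0.407, 0.624, 0.439 and 0.639 in siY14 libraries a to d, against 0.118 and 0.104 in siCtrl libraries. Every siY14 library was above both siCtrl libraries, and the means were 0.527 ± 0.121 (SD, n = 4) with siY14 and 0.111 ± 0.01005 (SD, n = 2) with siCtrl. SPHK2 over SGPP1 alone had means of 0.475 with siY14 and 0.101 with siCtrl. The kinases were already seen higher and the phosphatases lower with siY14, so the summed ratio restates those changes and adds no support. With siSOX9 the ratio was 0.259, 0.388, 0.365 and 0.303 in libraries a to d, against 0.441, 0.525 and 0.547 in siCtrl libraries. All siSOX9 libraries were below all siCtrl libraries, with means of 0.329 ± 0.0585 (SD, n = 4) and 0.504 ± 0.0562 (SD, n = 3). The siCtrl libraries of experiments 1 and 2 lay between the lowest and highest siY14 libraries, above the siCtrl libraries of experiment 3. The cause of this difference between siCtrl arms was not tested, since experiments and tables cannot be told apart.

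**Figure D2:**
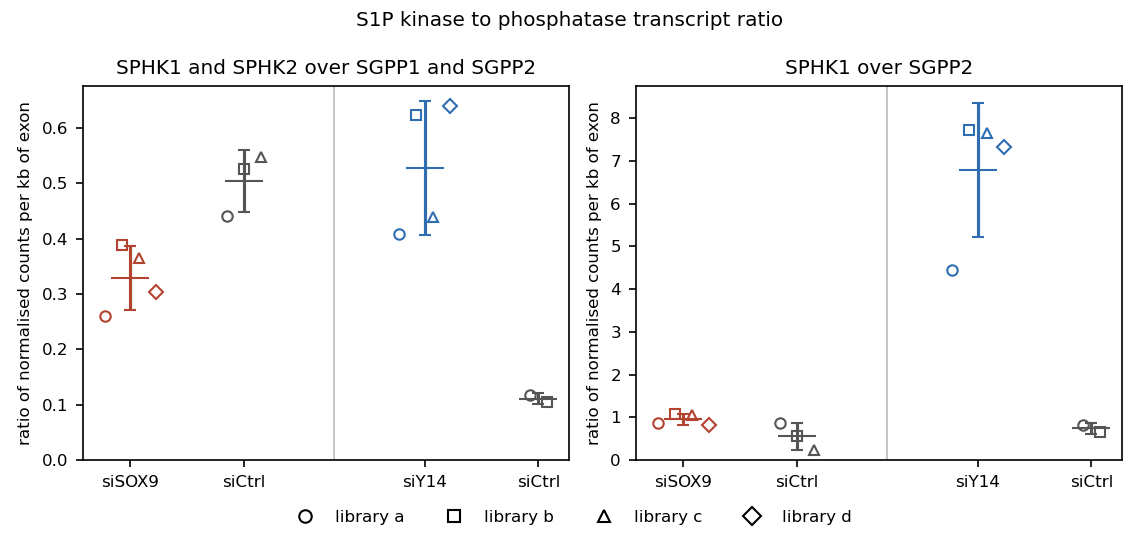
Ratio of summed normalised counts per kb of exon of SPHK1 and SPHK2 over SGPP1 and SGPP2 (left), and of SPHK1 over SGPP2 (right), in each recovered library (open symbols). Horizontal marks and error bars are the mean and SD of an arm. In the left panel the siY14 libraries, at 0.407 to 0.639, lie above their siCtrl libraries, while the siSOX9 libraries lie below theirs. In the right panel the siY14 libraries again lie above theirs. The siSOX9 libraries there, at 0.819 to 1.07, overlap their siCtrl libraries, at 0.238 to 0.867, and have the higher mean, 0.954 against 0.558.

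Within the enzyme pairs, SPHK2 per kb was 8.54 ± 0.516 (SD, n = 4) times SPHK1 with siY14 and 8.84 ± 1.32 (SD, n = 2) times with siCtrl, and the siY14 libraries lay within the range of the siCtrl libraries. With siSOX9 it was 12.1 to 19.1 times, against 14.7 to 64.2 times with siCtrl, and the libraries overlapped. SGPP1 per kb was 123 ± 28.5 (SD, n = 4) times SGPP2 with siY14 and 63.9 ± 3.33 (SD, n = 2) times with siCtrl. With siSOX9 SGPP1 was 50.5 ± 6.05 (SD, n = 4) times, against 28.9 ± 1.36 (SD, n = 3) times with siCtrl, and the libraries of this phosphatase ratio did not overlap in either comparison.

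SGPL1, the lyase that ends the pathway, was the most abundant member in every arm. It had a mean of 6508 normalised counts with siSOX9 and 6033 with siCtrl, a log2 fold change of 0.11 (adjusted p 1, the authors' deposited table). In siCtrl libraries a to c of that table it had 7446, 5411 and 5241 normalised counts. With siY14 its mean was 12437, against 9420 with siCtrl, a log2 fold change of 0.40 (adjusted p 0.132, the authors' deposited table). Reads were not recovered for the siSOX9 and siY14 arms, so its spread there is not known.

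Of the receptors, S1PR2, a G protein-coupled receptor, was the most abundant. It had 372, 429, 355 and 440.3 in siY14 libraries a to d, against 292 and 275 in siCtrl libraries. All siY14 libraries were above both siCtrl libraries, and b and d were the highest. The log2 fold change was 0.49 (adjusted p 0.119, the authors' deposited table). With siSOX9 it had 207, 208, 216 and 186 normalised counts in libraries a to d, against 263, 253 and 228 in siCtrl libraries. All siSOX9 libraries were below all siCtrl libraries, and the log2 fold change was -0.28 (adjusted p 0.864, the authors' deposited table).

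S1PR5, a receptor known from natural killer cells and oligodendrocytes, was close to the limit of detection. It had 17.9, 7.41, 18.5 and 20.7 normalised counts in siSOX9 libraries a to d, against 14.2, 17.7 and 10.4 in siCtrl libraries, and the groups overlapped. With siY14 it had 3.20, 4.89, 2.23 and 2.32, against 7.17 and 5.10 in siCtrl libraries. All siY14 libraries were below both siCtrl libraries, on 2 to 6 reads per siY14 library. S1PR3, a receptor prominent in vascular cells, had 20, 5, 4 and 1 reads in siSOX9 libraries a to d, against 5, 0 and 0 reads in siCtrl libraries, and all siSOX9 libraries were higher per size factor. With siY14 it had 0, 1, 0 and 1 reads, against 2 and 0 in siCtrl libraries. Adjusted p for S1PR3 and S1PR5 ran from 0.693 to 1 in the authors' deposited tables, and no change was detectable at this depth.

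In the authors' deposited table for siSOX9, 1 of the 9 members, SPNS2, was under an adjusted p of 0.05, where 3.47% of all 18747 genes with reads passed. In that for siY14, 4 members passed, SPHK1 and SPHK2 higher and SGPP1 and SGPP2 lower, where 9.16% of 17706 genes passed. Among recovered members with a mean of at least 10, siSOX9 and siCtrl libraries did not overlap for 5 of 7, and the same held for 28.9% of all such genes. For siY14 and siCtrl it was 5 of 6 members, and 57.3% of all such genes. With limma-voom on recovered reads, 2 of 7 members were called for siSOX9, SPNS2 and SPHK2, where 18% of such genes were, and 4 of 6 for siY14, where 18.8% were. With the deepest library of each arm as a block, a split by depth made after seeing the data, 4 members were called for siSOX9, SPNS2, SPHK2 and S1PR2 lower and SGPP1 higher, where 47.6% of such genes were. These counts describe genes chosen with both contrasts known, and nothing is read from them. The median log2 fold change of the members with a mean of at least 10 was -0.09 for siSOX9, against 0.01 over all such genes, and 0.41 for siY14, against -0.00. The siY14 median is the value of SPNS2, which was split between libraries, and members went both ways, so it shows no shift of the pathway.

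**Figure D3:**
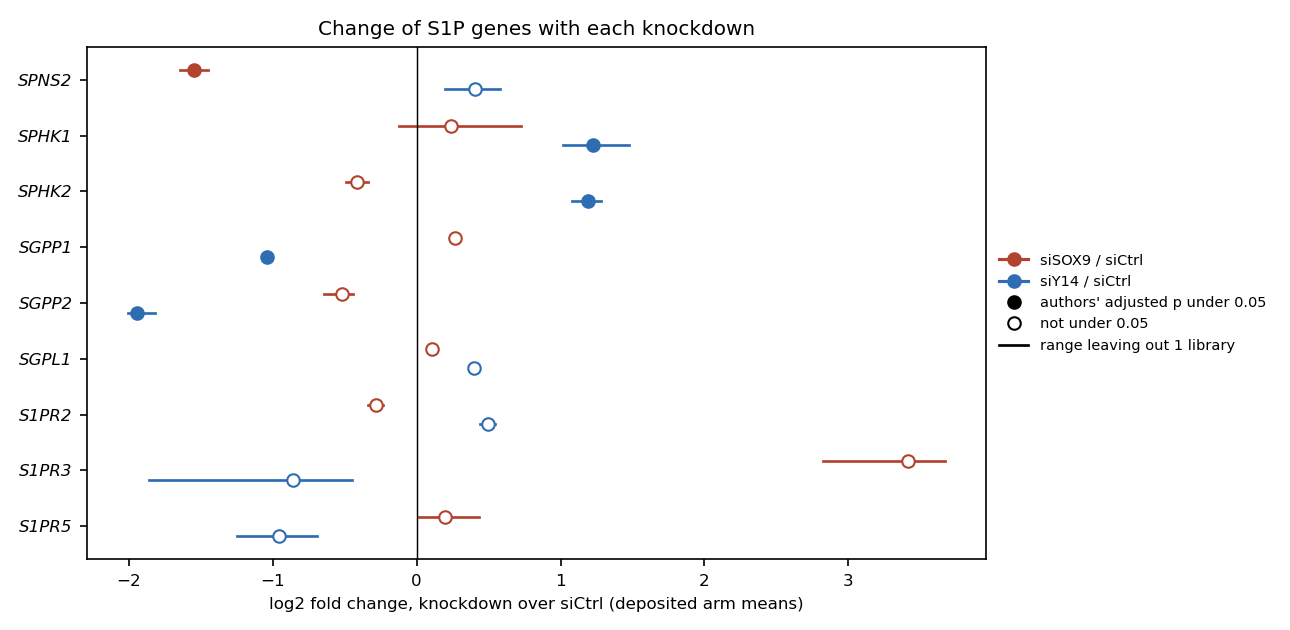
Log2 fold changes of the deposited arm means (horizontal axis, knockdown over siCtrl) of the 9 S1P genes. Points are filled where the authors' deposited tables have an adjusted p under 0.05, and lines span the values with 1 library left out, where reads were recovered and the siCtrl mean was above 0. SPHK1 and SPHK2 lie right of 0 with siY14 at 1.23 and 1.19, and SGPP1 and SGPP2 left of it at -1.04 and -1.94.

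The 5 genes whose values over all 13 libraries followed SPNS2 most closely were FUT3, CHRNA1, TGFB3, C6orf15 and KIAA1257. Likeness was the Euclidean distance between log2 profiles centred within each table, over 5182 genes with a mean of at least 50 in both tables. The distances were 0.60 for FUT3 and 0.91 to 0.97 for the other four, against a median of 2.55 over all genes compared. FUT3, a fucosyltransferase that makes Lewis blood group antigens, had 71.3, 90.2, 80.9 and 82.9 normalised counts in siSOX9 libraries a to d, against 224, 278 and 330.1 in siCtrl libraries. It had 149, 72.5, 151 and 74.2 in siY14 libraries a to d, against 106 and 99.4 in siCtrl libraries. FUT3 was picked for likeness to SPNS2 over these same libraries, so the shared split and the small distances follow from that choice. Among the members compared, S1PR2 was at a distance of 2.25, SPHK2 of 2.47 and SGPP1 of 3.10.

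Beside these 9 genes, 85 genes of neighbouring sphingolipid and lysophospholipid steps were examined, in 6 lists set down with earlier results of these data known. In the authors' deposited table for siSOX9, 83 had reads, and 2 rose and 4 fell, beside 1.19% and 2.27% of all genes. In that for siY14, 82 had reads, and 4 rose and 9 fell, beside 3.81% and 5.35% of all genes. The same shares of all genes stand beside the counts of each list below. The median log2 fold change of list genes with a mean of at least 10 was -0.02 for siSOX9 and -0.07 for siY14, against 0.01 and -0.00 over all such genes.

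In the synthesis of ceramide and sphingosine, 1 of 16 genes with reads fell with siSOX9 and 3 fell with siY14, and none rose. SPTSSB, a small subunit of serine palmitoyltransferase, had 240 normalised counts with siSOX9 against 443 with siCtrl, a log2 fold change of -0.89 (adjusted p 0.0106, the authors' deposited table). With siY14 it had 169 against 300.2 with siCtrl, a log2 fold change of -0.83 (adjusted p 0.034, the authors' deposited table). SPTSSA, the other small subunit, and SPTLC2, a catalytic subunit, also fell with siY14 in the authors' deposited table, with log2 fold changes of -0.61 and -0.49. The most abundant ceramide synthase, CERS2, had log2 fold changes of -0.02 with siSOX9 and 0.28 with siY14, with adjusted p of 1 and 0.363 in the authors' deposited tables.

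Among ceramidases and enzymes of the sphingomyelin cycle, 1 of 16 fell with siSOX9, and 1 rose and 2 fell with siY14. CERK, which phosphorylates ceramide, had 3225 normalised counts with siSOX9 against 5403 with siCtrl, a log2 fold change of -0.74 (adjusted p 0.00236, the authors' deposited table). With siY14 the authors' deposited table gives log2 fold changes of -0.77 for SGMS2, a sphingomyelin synthase, of -0.59 for SMPDL3A, and of 0.51 for the sphingomyelinase SMPD4. ASAH1, the lysosomal ceramidase that supplies sphingosine, had 6388 normalised counts with siSOX9 against 6718 with siCtrl, and 5323 with siY14 against 6097 with siCtrl, and did not pass in either of the authors' deposited tables.

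In the glycosphingolipid branch, 1 of 18 genes fell with siSOX9 and 3 fell with siY14. B4GALT5, a lactosylceramide synthase, had 3013 normalised counts with siSOX9 against 5892 with siCtrl, a log2 fold change of -0.97 (adjusted p 5.32e-06, the authors' deposited table). B4GALT6, the other lactosylceramide synthase, had 605 with siY14 against 1229 with siCtrl, a log2 fold change of -1.02 (adjusted p 2.55e-06, the authors' deposited table). ST3GAL5, which makes the ganglioside GM3 from lactosylceramide, had 138 with siY14 against 361 with siCtrl, a log2 fold change of -1.39 (adjusted p 2.15e-08, the authors' deposited table). GALC, the lysosomal galactosylceramidase, fell by 0.51 with siY14 in the authors' deposited table.

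Among other carriers and enzymes of S1P breakdown, 2 of 12 rose with siSOX9, and 1 rose and 1 fell with siY14. ABCG2, an efflux transporter, had 626 normalised counts with siSOX9 against 269 with siCtrl, and 434 with siY14 against 681 with siCtrl. Its log2 fold changes were 1.22 and -0.65, with adjusted p of 2.69e-07 and 0.0108 in the authors' deposited tables. PPAP2A, a lipid phosphate phosphatase of the cell surface, had a log2 fold change of 0.58 with siSOX9, and MFSD2A, a lysophospholipid transporter, one of 0.62 with siY14, both from the authors' deposited tables. SPNS3, a relative of SPNS2, had 68.7 normalised counts with siSOX9 against 125 with siCtrl (adjusted p 0.0643, the authors' deposited table). ALDH3A2, which acts after SGPL1 on the aldehyde it releases, had 10605 with siY14 against 16187 with siCtrl (adjusted p 0.2, the authors' deposited table).

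Among receptors and enzymes of related lysophospholipids, 1 of 9 with reads fell with siSOX9 and 1 of 8 rose with siY14. LPAR1, a receptor for lysophosphatidic acid, had 410.4 normalised counts with siSOX9 against 767 with siCtrl, a log2 fold change of -0.90 (adjusted p 0.00143, the authors' deposited table). LPAR2 had 1704 with siY14 against 973 with siCtrl, a log2 fold change of 0.81 (adjusted p 0.016, the authors' deposited table). Of 12 genes for proteins that act downstream of S1P receptors, none passed with siSOX9 in the authors' deposited table, where 3.47% of all genes passed. With siY14 GNA11, a Gq family alpha subunit, rose by 0.80 in the authors' deposited table. Of the 11 colon epithelial markers, KRT20 rose and VIL1 fell with siSOX9, beside 1.19% and 2.27% of all genes. The list's summed mean was 319609 normalised counts with siSOX9 against 357571 with siCtrl. In the authors' deposited table for siY14, 5 of the 11 fell and none rose, beside 5.35% and 3.81% of all genes. These 5 were CDH1, KRT20, VIL1, CDH17 and LGALS4. The list's summed mean was 323910 normalised counts with siY14 against 438537 with siCtrl. The part of this shift in the values above was not tested.

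**Figure D4:**
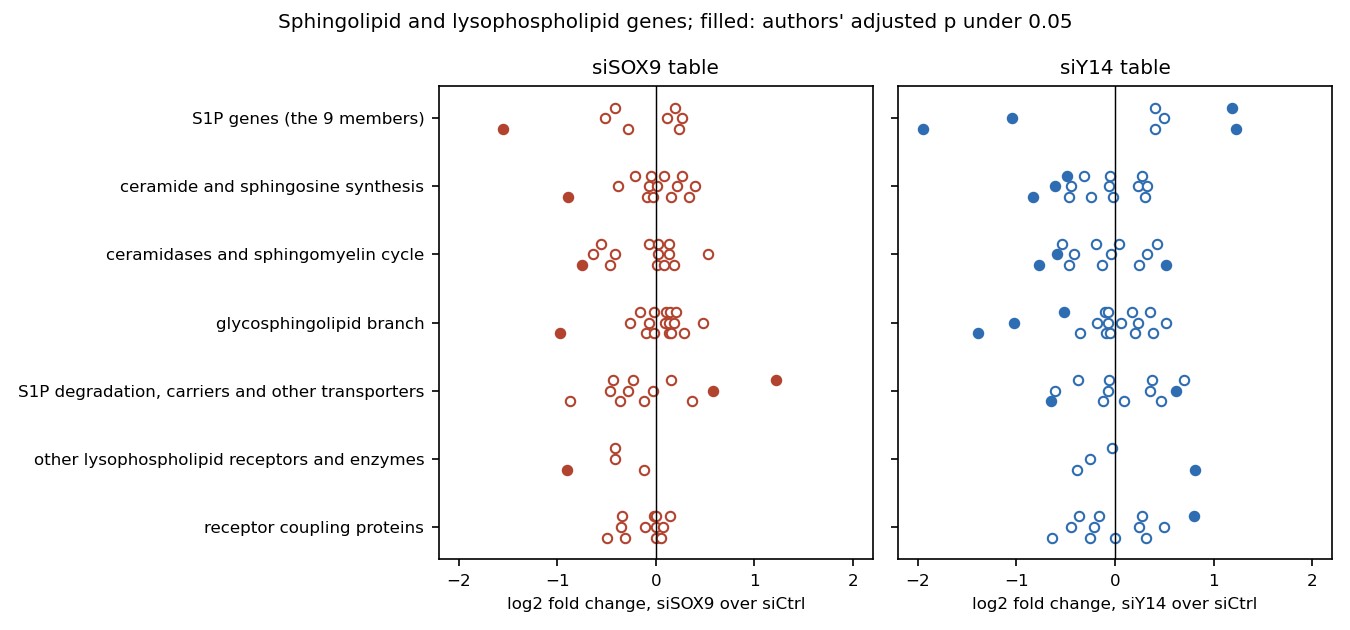
Log2 fold changes of deposited arm means (horizontal axes) for the 9 S1P genes and 6 lists of neighbouring genes, with siSOX9 over siCtrl on the left and siY14 over siCtrl on the right. Each point is a gene whose arm means sum to at least 20 normalised counts, vertical offsets only separate points, and points are filled where the authors' deposited tables have an adjusted p under 0.05. The lowest filled points are SPNS2 with siSOX9, at -1.55, and SGPP2 with siY14, at -1.94.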

How the data were processed

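The authors deposited 2 comparison tables of stranded, polyadenylated RNA libraries. The submitters' processing notes name hg19 and, for the authors' work, HTSeq, DESeq, TopHat2, HISAT2, Bowtie and SAMtools, with order, versions and settings not given in the sources used here. Per the file headers, the deposited arm means are a signal, reads over the library's size factor, averaged. The deposited fold change is their ratio, given also as a log2 value, and the authors' p-value comes raw and adjusted. From its weight in the overall mean, each arm had the number of libraries the labels give. Columns are arm means, and 0 per-sample columns went unused.

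Members and lists were chosen with earlier results of these data known. The text names the members, every list gene passing an adjusted p of 0.05, and the 5 genes most like SPNS2; other list genes, markers and overlapping genes were named after their values were seen. Each arm mean is a sum of whole reads times the value of 1 read per library. All sets of reads giving the printed mean were listed, and the closest to equal normalised counts was kept when it scored at least 100 times all others together, which favours sets with little spread. Means up to 2000, 7000 and 20000 were tried in arms of 4, 3 and 2 libraries. All such means had a set, and 112 and 65 genes of the siSOX9 and siY14 arms stayed undecided. On simulated reads, 0 of 500 means per arm came out wrong. Simulated means shifted off their sum were accepted 0 times up to a mean of 300. In the siSOX9 and siY14 arms, 280 and 279 of the 500 shifted means lay there. Above 300, 39 and 50 were accepted in these arms, so recovery is less certain there. Genes recovered at a mean of 10 or more were also tested with limma 3.58.1 (voom, Benjamini-Hochberg), for siSOX9 also with the deepest library of each arm as a block. With simulated counts this called 94 of 100 genes changed 2-fold in the siSOX9 design on 7877 genes, and 93 of 100 in the siY14 design on 7280. The simulated libraries varied independently, with the same low dispersion for every gene. They held neither the siY14 pairs nor the shared deviation of the deepest libraries, so these shares need not hold for the real data. Intervals and SDs cover the sequenced libraries only, and in the siY14 arm they also hold any difference between the pooled siRNAs. Upstream sequences are RefSeq's, on GRCh38.p14, and lengths and overlaps are GENCODE 29's, while the counts used hg19.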

Additional observations from a re-analysis of the deposited data

Results flagged for a closer look

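Of 26 groups of 4 libraries examined, 1 held a library far from the others, about as many as chance gives at 1 in 20. In siY14 library a the ratio of SPHK1 to SGPP2 per kb was 4.45, against 7.32 to 7.71 in the other 3 siY14 libraries and 0.649 and 0.8289 in the siCtrl libraries.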

How the results depend on the processing

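No paired analysis was possible because the deposited columns carry no replicate number. The member calls were 1 for siSOX9 and 4 for siY14 in the authors' deposited tables, at an adjusted p of 0.1 and after a filter at a mean of 10 also 1 and 4, and at 0.01 they were 1 and 3, without SPHK1. All alternatives below with limma-voom were chosen after seeing the data, and they test only recovered genes. With limma-voom, 2 members were called for siSOX9, SPNS2 and SPHK2, 3 without the deepest library of each arm (with SGPP1), and 4 with that library as a block, with 1 to 2 when 1 library was left out. For siY14 it called 4 members, with S1PR2 in place of SPHK1, and 0 to 5 when 1 library was left out. The 0 arose without either siCtrl library, where 5 and 3 of 6 members had an unadjusted p under 0.05 and the single siCtrl library left is taken to vary as siY14 libraries do. Without siY14 library d, 2 members were called, and without b, 3. Pathway calls for siSOX9 were 6, and 12 with limma-voom, 16 without the deepest libraries, 21 with them as a block, and 7 to 15 with 1 library left out (11 without siCtrl library b). For siY14 they were 13, and 5 at an adjusted p of 0.01, 9 with limma-voom, and 0 to 13 with 1 library left out, where 8 and 9 of 28 had an unadjusted p under 0.05 without siCtrl library a and b. Of 98 member fold changes per comparison under pseudocounts, scalings and left-out libraries, 2 for siSOX9 and 8 for siY14 moved by more than the spread, 4 of the 8 being SGPL1, whose only known spread is that of its siCtrl libraries. The called members kept their direction in all of them. SGPP2 with siY14 was -1.36 on the log2 scale with a pseudocount of 10, and S1PR3 with siSOX9 was 0.53. Scaling to equal sums shifted siY14 fold changes by 0.07. The causes were not tested. Depth limits S1PR3, S1PR5, SGPP2 and SPHK1 most.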

Other observations

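MFSD2B, an exporter of S1P in red blood cells and platelets, was listed at 13.7 normalised counts with siSOX9 and 18.5 with siCtrl of experiments 1 and 2. In the siY14 table it was listed at 567 with siY14 and 439 with siCtrl of experiment 3, in the authors' deposited tables. DEGS2, a dihydroceramide desaturase, went the other way, at 71.5 with siSOX9 and 82.9 with siCtrl, but at 10.8 with siY14 and 14.9 with siCtrl in the other table. The tables were normalised separately, and the cause was not tested.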
